A study of Mus musculus with 13 samples.

Results

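Agrp lies on mouse chromosome 8, and this account describes the protein-coding genes around it in the arcuate nucleus of mice that did or did not carry a deletion of Klf4 in Agrp-expressing cells. The members were taken by position alone: protein-coding identifiers whose first start in the deposited count table fell between 104.9 and 106.3 Mb on chromosome 8 (mm10), without Agrp itself. This gave 62 members of 55421 gene identifiers in the table, with 61 distinct symbols because Dpep2 has 2 identifiers. There were 29 members below Agrp and 33 above it, with 35 on the plus strand and 27 on the minus strand. Of the 62 members, 55 had reads in every library and 2 (Ces3a and Dpep3) had none in any library, and 56 passed the expression filter and were tested.

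AgRP neurons of the arcuate nucleus release AgRP, a peptide that blocks melanocortin receptors and promotes feeding, and Klf4 encodes a zinc-finger transcription factor. The genes nearest to Agrp have unrelated roles. Hsd11b2 encodes the enzyme that turns active corticosterone into inactive 11-dehydrocorticosterone, and in kidney it keeps glucocorticoids off the mineralocorticoid receptor. Atp6v0d1 encodes the d subunit of the membrane sector of the vacuolar proton pump, which acidifies lysosomes and synaptic vesicles.

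Each of the 13 libraries was made from the arcuate nucleus of a mouse aged 20 weeks. The knockouts (KO) carried Agrp-Cre and floxed Klf4 and the controls were littermates; mice stayed on chow or ate a high-fat diet (HFD) for their last 10 weeks. There were 3 KO and 4 control libraries on HFD, and 3 of each on chow. The sources used here do not give the Agrp-Cre line, nor whether controls carried Cre or floxed Klf4, so the deletion, the Cre allele and any other difference that follows the KO label cannot be told apart.

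Libraries held 34.7 to 68.2 M counts, and 1 count equalled 0.0148 to 0.0289 CPM (counts per M of the library total scaled by the TMM factor of edgeR). Klf4 itself was at 1.60 to 5.75 CPM over all libraries and did not differ by label (edgeR adjusted p of 1 on HFD and 0.878 on chow), in whole tissue where most cells do not express Agrp. The 10 listed arcuate neuron genes were all detected and summed to 915 to 3400 CPM. On chow that sum was 1490 to 3300 CPM in KO against 915 to 984 CPM in controls. Not every gene in it split this way. KO_Chow replicate 1 held 14.4 CPM of Agrp, 46.4 of Npy and 367 of Pomc, against up to 17.9, 76.6 and 377 CPM in chow controls. Ghrh did not overlap, at 36.0 CPM or more in KO and at most 26.4 CPM in controls. No list of neuron, glia, vessel or neighbouring-tissue markers separated KO from control in both diets, with or without the library labelled Control_HFD replicate 3. The library labelled Control_Chow replicate 3 carries the letter F, but its Xist level was 0.692 CPM while the other F libraries held 38.8 to 64.2 CPM, and its 4 Y-linked genes summed to 185 CPM, within the 174 to 208 CPM of the M libraries. The fit keeps its letter as F. The letters are M for Control_Chow replicates 1 and 2 and KO_Chow replicate 1, and F for KO_Chow replicates 2 and 3. By Xist every chow control thus read as male, while KO_Chow replicates 2 and 3 were at 52.3 and 64.2 CPM. Genotype and sex therefore cannot be fully told apart in any chow comparison below. Because the library labelled Control_HFD replicate 3 had the Hsd11b2 level of the KO libraries, results that rest on it are given with and without it. Its exclusion was decided from that level, so neither a call nor a split of the groups seen without it is separate evidence.

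Hsd11b2 (ENSMUSG00000031891.6, chr8:105518755-105523988, plus strand) was the member with the largest KO to control ratio. Its level on HFD was 68.5, 61.9 and 61.6 CPM in the 3 KO libraries against 0.915, 0.339, 63.4 and 1.57 CPM in control replicates 1 to 4. The KO libraries lay together, 3 of the controls lay close to 0, and the library labelled Control_HFD replicate 3 lay among the KO libraries. On chow it was at 69.4, 60.8 and 64.1 CPM in KO against 0.895, 0.594 and 0.387 CPM in controls, with no overlap. The 6 low control libraries held 14 to 106 Hsd11b2 counts each, so the gene was detected in all of them.

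Atp6v0d1 (ENSMUSG00000013160.7, chr8:105524465-105566047, minus strand) lies between Hsd11b2 and Agrp, 476 bases from the former and 650 bases from the annotated model of the latter. It split the libraries in the same way at a smaller ratio. On HFD its level was 291, 269 and 245 CPM in KO against 200, 210, 274 and 196 CPM in control replicates 1 to 4. On chow it was at 271, 272 and 268 CPM in KO against 192, 197 and 199 CPM in controls. The lowest KO library stood 1.17-fold above the highest of the other 6 controls for Atp6v0d1, and 38.6-fold above for Hsd11b2. In bulk tissue, more cells that express a gene and more RNA per cell cannot be told apart.

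**Figure D1:**
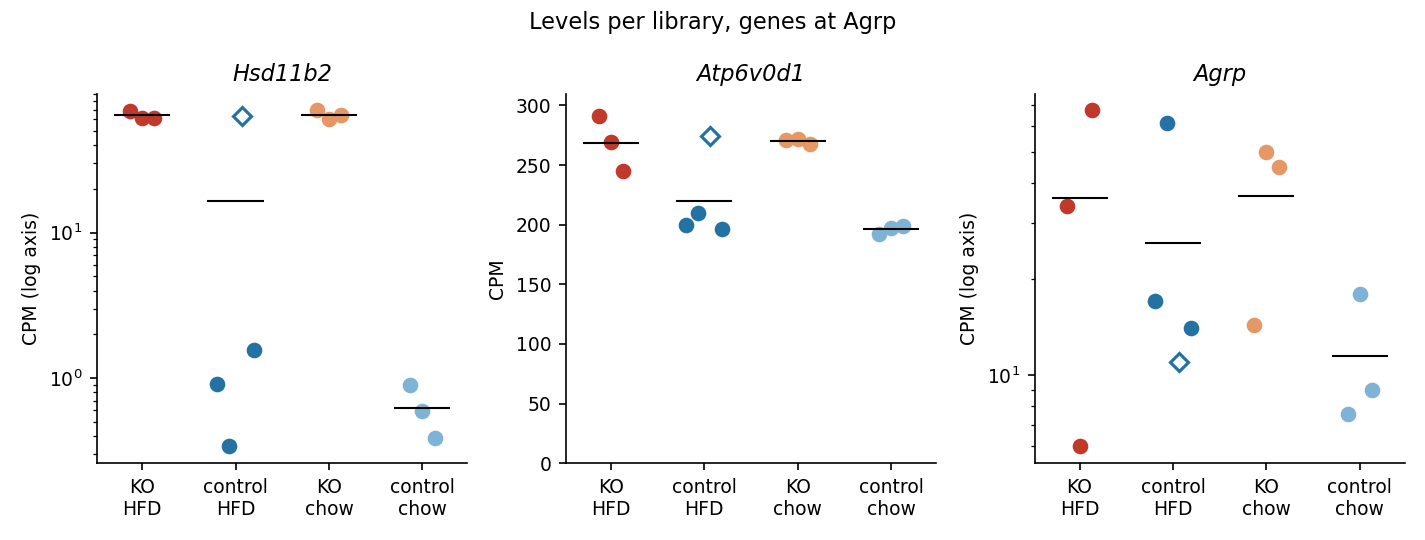
Levels of Hsd11b2, Atp6v0d1 and Agrp in CPM in each of the 13 libraries by group, with a line at the group mean (log axes for Hsd11b2 and Agrp, linear from 0 for Atp6v0d1). The open diamond is the library labelled Control_HFD replicate 3, at 63.4 CPM for Hsd11b2 and 274 CPM for Atp6v0d1, beside the KO libraries for both genes and at 11.0 CPM for Agrp.

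On the CPM scale both genes differed by a like amount. Against the 6 controls other than the library labelled Control_HFD replicate 3, Hsd11b2 was higher by 63.6 CPM (64.4 ± 3.70 SD, n = 6, in KO and 0.784 ± 0.457, n = 6) and Atp6v0d1 by 70.5 CPM (269 ± 14.4 and 199 ± 6.09). Per length the differences were 34.6 RPKM for Hsd11b2 and 40.0 RPKM for Atp6v0d1. As ratios of mean CPM they were 82.1 and 1.35. Hsd11b2 also varied little among KO libraries, with a coefficient of variation of 5.75%. Over the 30 members with a mean of at least 20 CPM that coefficient had a median of 7.28% (range 2.54 to 29.1%), and over all 9037 such genes a median of 8.69%.

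In the fit of all 13 libraries, Hsd11b2 had a log2 fold change of KO against control that was 2.44 ± 1.41 (SE) on HFD and 6.40 ± 1.92 on chow, with edgeR adjusted p of 1 and 0.264. The values for Atp6v0d1 were 0.29 ± 0.11 on HFD and 0.45 ± 0.12 on chow, with edgeR adjusted p of 1 and 0.263. Averaged over the diets they were 4.42 ± 1.16 and 0.37 ± 0.08, and both had an edgeR adjusted p of 0.437. edgeR thus called no member in any of these comparisons, where it called 0.0% of 23622 genes. DESeq2 called both genes on chow (adjusted p of 0.00571 for Hsd11b2 and 0.0383 for Atp6v0d1) and on the mean of both diets (0.0208 and 0.0362), where it called 1.46% and 0.22% of genes.

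The controls of the chow comparison do not include the library labelled Control_HFD replicate 3. With the 6 chow libraries alone, Hsd11b2 was higher in KO by 6.84 ± 0.22 on the log2 scale with an edgeR adjusted p of 6.92e-05, the only gene called (0.00463% of 21607), and Atp6v0d1 by 0.47 ± 0.08 with an edgeR adjusted p of 0.404. With the other 12 libraries, Hsd11b2 was higher by 6.03 ± 0.43 on HFD and 6.67 ± 0.46 on chow, with edgeR adjusted p of 0.00335 and 0.00281. It was then the only gene called on either diet, 0.00424% of 23599 genes. With the 6 remaining HFD libraries fitted alone, Hsd11b2 was at 5.99 ± 0.47 and no gene was called (edgeR adjusted p of 0.75). Averaged over both diets, Hsd11b2 was at 6.35 ± 0.32 (edgeR adjusted p of 0.000142) and Atp6v0d1 at 0.45 ± 0.05 (0.0337). These 2 genes were the ones called, or 0.00847% of the genes tested, and ranked 1 and 2 by p in each of the 3 comparisons. With the library labelled Control_Chow replicate 3 left out as well, the mean over both diets kept the call of Hsd11b2 (6.17 ± 0.34, edgeR adjusted p of 0.00121), while Atp6v0d1 was at 0.48 and lost it (0.0946).

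Log2(CPM + 1) was also compared by a two-sided exact permutation test, which over all libraries with labels exchanged within each diet gave p = 0.00571 for each of the 2 genes (smallest possible 0.00143). Within HFD alone the exact p was 0.114 for each (smallest possible 0.0286), and within chow it was 0.1, the smallest the design allows. Both genes were picked with their levels known, so these p-values describe the separation. The KO to control difference did not pass a threshold for differing between the diets: the interaction of Hsd11b2 was -3.96 ± 2.38 (edgeR adjusted p of 0.909) and of Atp6v0d1 -0.17 ± 0.16 (0.937), and without the library labelled Control_HFD replicate 3 they were -0.64 and -0.06.

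Agrp did not split the libraries as its neighbours did. It ranged from 5.99 to 67.3 CPM (median 39.2) over the 6 KO libraries and from 7.54 to 61.6 CPM (median 14.0) over the 7 controls. The log2 fold change of Agrp was 0.62 ± 0.91 on HFD and 1.87 ± 1.05 on chow (edgeR adjusted p of 0.484 on chow). Averaged over the diets it was 1.25 ± 0.74 (edgeR adjusted p of 0.591). The KO library with 5.99 CPM of Agrp and the KO library with 67.3 CPM held 61.9 and 61.6 CPM of Hsd11b2. Among controls, the library with most Agrp (61.6 CPM) had the least Hsd11b2, at 0.339 CPM. Gm38250, an antisense non-coding gene that starts in the gap between Atp6v0d1 and Agrp, was at a log2 fold change of 0.01 ± 0.15 averaged over the diets. None of the 11 tested genes of other biotypes in the window was called by edgeR with all libraries, which called 0.0% of 23622 genes.

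**Figure D2:**
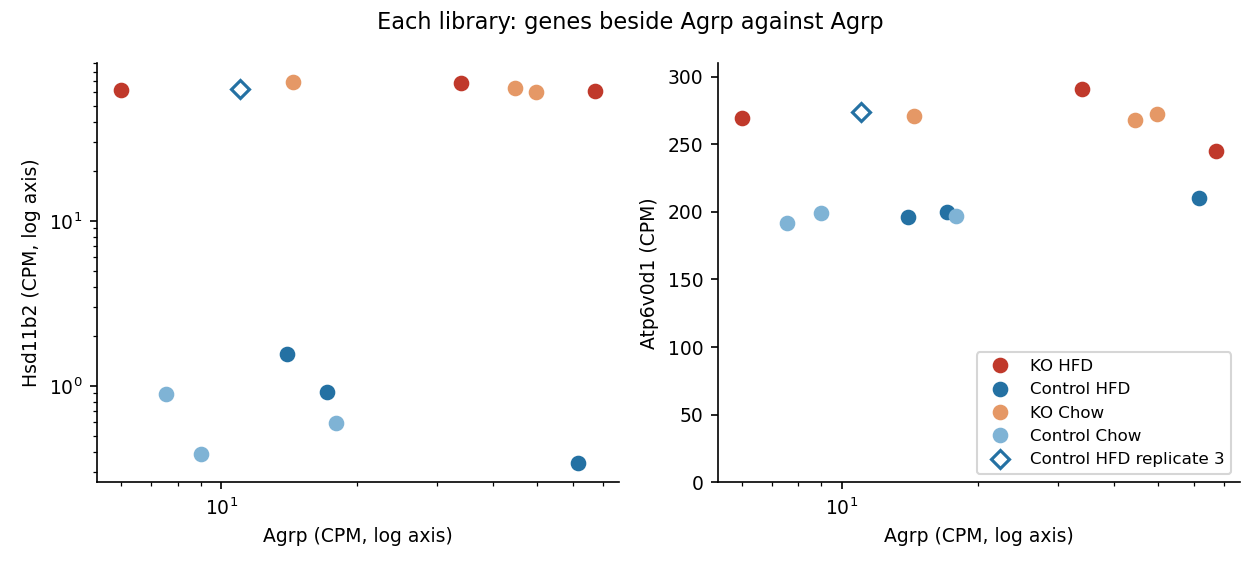
Hsd11b2 (left, log axis) and Atp6v0d1 (right, linear axis from 0) against Agrp, all in CPM, 1 point per library, coloured by group, with the library labelled Control_HFD replicate 3 as an open diamond. KO libraries stay between 60.8 and 69.4 CPM of Hsd11b2 while Agrp runs from 5.99 to 67.3 CPM.

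The promoters of Atp6v0d1 and of the nearest members on either side of the pair, Zdhhc1 and Ripor1, are shown because they bound the stretch that holds both genes; the promoter of Hsd11b2 is not analysed here. Each sequence is the 250 bases before the annotated start, 5′ to 3′ on the gene's strand, from RefSeq (GRCm38.p6); 39 of the 61 member symbols had an entry. They lie at chr8:105497063-105497312 (minus strand) for Zdhhc1, chr8:105566065-105566314 (minus strand) for Atp6v0d1 and chr8:105604979-105605228 (plus strand) for Ripor1. Capitals mark GGGCGG and CACCC on either strand.
Zdhhc1: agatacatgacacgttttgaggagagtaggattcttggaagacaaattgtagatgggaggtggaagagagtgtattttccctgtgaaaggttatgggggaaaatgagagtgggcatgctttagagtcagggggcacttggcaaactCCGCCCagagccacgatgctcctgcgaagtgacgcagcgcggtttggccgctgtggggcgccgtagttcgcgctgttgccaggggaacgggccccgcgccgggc
Atp6v0d1: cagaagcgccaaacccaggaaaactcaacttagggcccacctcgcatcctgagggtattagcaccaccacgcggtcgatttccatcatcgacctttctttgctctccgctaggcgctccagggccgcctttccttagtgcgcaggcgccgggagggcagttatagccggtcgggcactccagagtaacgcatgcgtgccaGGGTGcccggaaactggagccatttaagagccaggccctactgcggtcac
Ripor1: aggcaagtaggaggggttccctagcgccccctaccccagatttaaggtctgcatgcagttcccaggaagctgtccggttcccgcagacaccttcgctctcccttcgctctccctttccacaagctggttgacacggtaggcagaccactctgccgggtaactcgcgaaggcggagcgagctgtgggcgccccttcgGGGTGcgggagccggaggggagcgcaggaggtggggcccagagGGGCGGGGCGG
The GC content was 57.2% for Zdhhc1, 60.4% for Atp6v0d1 and 66.8% for Ripor1, with 16, 18 and 18 CG dinucleotides, against medians of 52.4% and 6 over 32851 promoters of the same length. Motifs were counted on both strands. GGGCGG, the GC box, occurred 1 time for Zdhhc1, 2 times for Ripor1 (overlapping by 1 base) and in 32.7% of all promoters. CACCC, the core that KLF factors are known to bind, occurred 1 time each for Atp6v0d1 and Ripor1 and in 52.0% of all promoters. CCAAT (33.9% of all promoters), CACGTG (6.02%) and TATAAA (12.4%) were not found in these 3 windows. A match is a description of the letters only.

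With all libraries, edgeR called 0.0% of 23622 genes, so neither the genes on either side of Hsd11b2 and Atp6v0d1 nor the pair itself. Without the library labelled Control_HFD replicate 3, the pair were the only genes called over both diets (0.00847% of 23599). The genes next in order are Tppp3 and Zdhhc1 below and Ripor1 and Ctcf above. Zdhhc1, a palmitoyltransferase that ends 21852 bases before Hsd11b2 starts, was at 59.6, 54.6 and 49.1 CPM in KO on HFD against 56.4, 60.4, 48.3 and 56.9 CPM in controls. On chow it was at 54.1, 57.1 and 56.3 CPM in KO against 58.0, 64.7 and 55.5 CPM in controls. Its groups overlapped in both diets, and its log2 fold change over both was -0.03 ± 0.06. Tppp3, a tubulin-binding protein with the highest level per length of all members (mean 173 RPKM, beside 132 RPKM for Atp6v0d1), was at 0.06 ± 0.08. Ctcf, the insulator-binding factor whose exons partly overlap the long Agrp transcript model on the other strand, was at 0.01 ± 0.05.

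Ripor1, which starts 38.557 kb above the lower end of Agrp, was lower in KO on chow. It was at 66.3, 63.5 and 73.3 CPM in KO against 83.0, 83.7 and 78.6 CPM in controls on chow, with no overlap. On HFD its level was 82.4, 74.1 and 70.8 CPM in KO against 74.4, 76.4, 77.4 and 78.0 CPM in controls, with overlap. The log2 fold change was -0.26 ± 0.08 on chow (edgeR adjusted p of 0.264) and -0.01 ± 0.07 on HFD (1), and the difference between the diets had an edgeR adjusted p of 0.909.

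Over both diets, 4 of the 56 members (7.14%) had an unadjusted edgeR p under 0.05, against 9.5% of all genes: Hsd11b2, Atp6v0d1, Ripor1 and Smpd3. The interaction had 4 such members (7.14%), Lrrc36, Ranbp10, Ripor1 and Tmem208, against 5.1% of all genes.

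By distance, the 6 members within 100 kb had a median log2 fold change over both diets of 0.04 (4 above 0 and 2 below). The 24 members at 100 to 300 kb had a median of 0.01 (12 and 12), and the 26 tested members beyond 300 kb a median of 0.04 (17 and 9). Over all 56 tested members the median was 0.03 with 33 above 0 and 23 below, and over all 23622 genes it was -0.00. The median size of the change, without its sign, was 0.12 for the members and 0.12 for all genes. In the flanks of the window on chromosome 8, edgeR called none of 33 tested genes over both diets, where it called 0.0% of all 23622 genes.

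**Figure D3:**
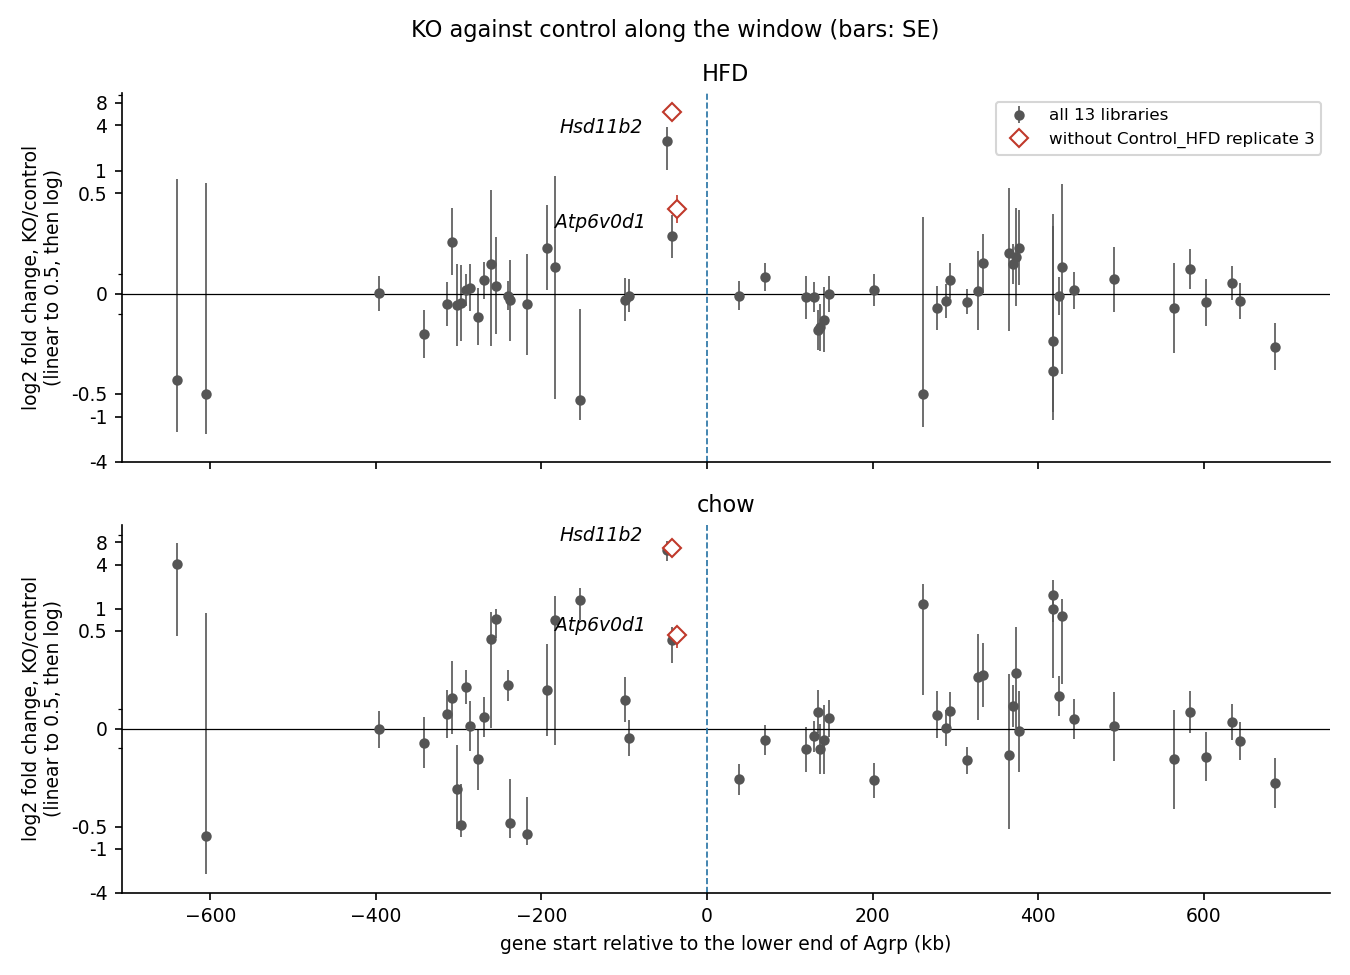
KO against control as log2 fold change for the tested members on HFD (top) and chow (bottom), by gene start relative to the lower end of Agrp in kb (bars: SE; the vertical axis is linear to 0.5 and logarithmic beyond). Filled points use all 13 libraries; open diamonds, drawn a little to the right of their genes, show Hsd11b2 (6.03 on HFD) and Atp6v0d1 (0.42 on HFD) without the library labelled Control_HFD replicate 3, and most other members lie near 0.

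On HFD, 2 of the 56 tested members (3.57%) had an unadjusted edgeR p under 0.05, Atp6v0d1 and Smpd3, against 1.66% of all genes. Smpd3, which makes ceramide from sphingomyelin as neutral sphingomyelinase, lies at the upper edge of the window. Its level on HFD was 73.1, 69.9 and 54.6 CPM in KO against 72.9, 71.8, 77.4 and 93.9 CPM in controls, with overlap. On chow it was at 63.8, 63.1 and 68.1 CPM in KO against 83.8, 71.6 and 78.9 CPM in controls, with none. The log2 fold change was -0.27 ± 0.12 on HFD and -0.28 ± 0.13 on chow, and over both diets -0.27 ± 0.09 (edgeR adjusted p of 0.437).

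The other members named on HFD did not pass the threshold. Tradd, the adaptor of the tumour necrosis factor receptor, was at 0.26 ± 0.17, and Psmb10, a subunit of the immunoproteasome, at 0.15 ± 0.10. Pard6a, a cell polarity scaffold, was at -0.18 ± 0.10, Enkd1, a microtubule-associated protein, at -0.17 ± 0.12, and D230025D16Rik at -0.20 ± 0.12 (edgeR adjusted p of 1 for all 5). Enkd1 was the 1 member whose HFD groups did not overlap, at 9.81, 8.48 and 9.60 CPM in KO against 10.7, 10.0, 10.6 and 10.5 CPM in controls. Such a split was seen for 3.42% of all genes. Without the library labelled Control_HFD replicate 3 it was seen for 4 members on HFD (7.14%), against 6.05% of all genes. Hsd11b2 and Atp6v0d1 were higher in KO, and Enkd1 and Lrrc36 lower. As that library was left out for its Hsd11b2 level, the split of Hsd11b2 followed from that choice. On chow the groups of Enkd1 overlapped.

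On chow, 10 of the 56 members (17.9%) had an unadjusted edgeR p under 0.05, 5 higher and 5 lower in KO, against 12.9% of all genes. Groups on chow did not overlap for 15 members (26.8%; 8 higher and 7 lower) against 19.5% of all genes. Over the libraries of both diets together, no member had KO and control levels that did not overlap (0.148% of all genes). Without the library labelled Control_HFD replicate 3, the levels of Hsd11b2 and Atp6v0d1 did not overlap (2 of 56, against 0.368%). That library was left out for its Hsd11b2 level. The split of Hsd11b2 followed from that choice, and neither split is separate evidence.

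Several other members named on chow were lower in KO. Ranbp10, a Ran-binding cytoplasmic protein, was at 30.0, 30.4 and 29.9 CPM in KO against 34.6, 35.0 and 39.6 CPM in controls, which did not overlap (-0.26 ± 0.09). Edc4, a scaffold of mRNA decapping, was at 119, 120 and 116 CPM in KO against 143, 125 and 129 CPM in controls (-0.16 ± 0.07). Hsf4, a heat shock transcription factor known for its role in the lens, was at 7.70, 7.32 and 6.79 CPM in KO against 10.3, 11.2 and 9.88 CPM in controls (-0.49 ± 0.21). All 3 were lower in every KO library on chow, with edgeR adjusted p between 0.270 and 0.355.

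Tmem208, a protein of the endoplasmic reticulum, was higher, at 37.4, 36.6 and 36.1 CPM in KO against 30.1, 33.2 and 31.1 CPM in controls on chow (0.22 ± 0.08). Lrrc29, an F-box protein gene, was at 2.57, 3.15 and 4.04 CPM in KO against 2.66, 1.97 and 1.69 CPM in controls (0.73 ± 0.27), with overlap. Their edgeR adjusted p-values were 0.287 and 0.303. Lrrc36 stood at 0.779, 4.75 and 3.43 CPM in KO against 1.21, 1.12 and 1.02 CPM in controls on chow, so that 2 of the 3 KO libraries were high (1.30 ± 0.59, edgeR adjusted p of 0.389). In the same libraries the summed level of the 10 ependymal cilia markers, all detected, was 45.7, 132 and 99.1 CPM in KO against 24.2, 54.0 and 33.0 CPM in controls. Their part in the Lrrc36 values was not tested.

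The remaining members named by position or level lay within 1 SE of 0. Over both diets Carmil2, an actin regulator of T cells, was at -0.06 ± 0.08, Acd, a telomere-binding shelterin protein, at -0.03 ± 0.05, and Thap11, a zinc-finger factor of embryonic stem cells, at -0.02 ± 0.06. Kctd19, a meiosis gene, was at 0.42 ± 0.54 from levels of 0.0289 to 0.530 CPM. The signs of these 4 and of Ctcf, Zdhhc1, Tppp3 and Lrrc36 depend on single libraries or settings.

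The diet contrast, HFD against chow averaged over the genotypes, had an unadjusted edgeR p under 0.05 for 4 of the 56 members (7.14%), all higher on HFD, against 6.95% of all genes, and edgeR called 0.0%. They were Ces2e, Ces2g, Psmb10 and Tradd, of which the first pair, carboxylesterases, were named after their values were seen. Tradd was at 0.31 ± 0.12 and Psmb10 at 0.18 ± 0.07 on the log2 scale (edgeR adjusted p of 0.711 for both). Ces2e was at 0.0 to 1.04 CPM and Ces2g at 0.0 to 2.86 CPM, and as paralogues their read assignment is uncertain. Of the 6 untested members, Ces2f, Ces2h and Ces3b reached at most 8 counts in a library, Ces4a at most 10, and Ces3a and Dpep3 had none.

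Over the members as a whole, the library labelled Control_HFD replicate 3 lay outside the range of the other 6 controls for 10 of the 56 tested members (17.9%), against 23.8% of all genes. It lay outside that range and inside the KO range for 5 members (8.93%), Hsd11b2, Atp6v0d1, Ranbp10, Edc4 and Dus2 (the last, a tRNA dihydrouridine synthase, named for this count after its value was seen), against 14.8% of all genes. Apart from the suffix, its mouse number in the sample title is that of KO_HFD replicate 2, and Control_HFD replicates 1 and 2 share a number in the same way; what a shared number marks is not stated.

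**Figure D4:**
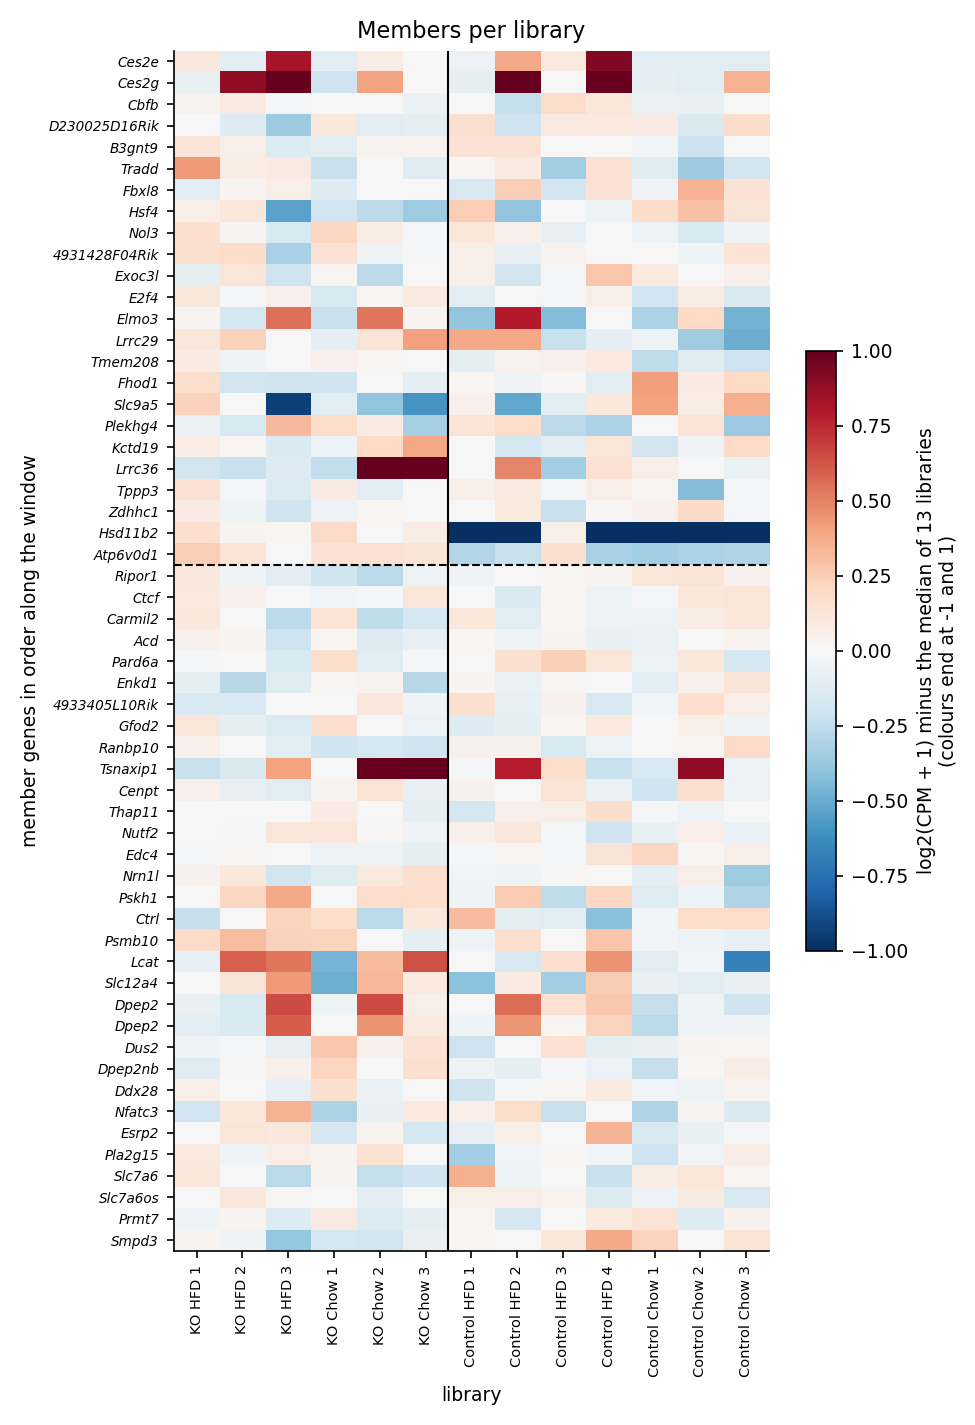
Each tested member (rows, in order along the window; the dashed line marks Agrp) in each of the 13 libraries (columns, KO left of the black line) as log2(CPM + 1) minus the member's median, with colours ending at -1 and 1. Hsd11b2 is dark blue in 6 controls and pale in the library labelled Control_HFD replicate 3, at 63.4 CPM, while most rows show no split at the line.

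The other genes of the proton pump were compared with Atp6v0d1. Of 24 listed genes 20 were tested, and over both diets 8 lay above 0 and 12 below, with a median log2 fold change of -0.01 (all genes -0.00) and a range of -0.17 to 0.16. edgeR called none, where it called 0.0% of all genes. Only Atp6v1g1, a subunit of the pump's cytoplasmic sector, had an unadjusted edgeR p under 0.05 (0.12 ± 0.05), 1 of 20 against 9.5% of all genes. Atp6v1f, of the same sector, was at 0.13 ± 0.06, Atp6v0e, of the membrane sector, at 0.16 ± 0.10, and Atp6v1a, the catalytic subunit, at -0.17 ± 0.08. On chow 11 of the 20 lay above 0 and 9 below. There 2 had an unadjusted edgeR p under 0.05, against 12.9% of all genes: Atp6v1f at 0.26 ± 0.09 and Atp6v1g1 at 0.23 ± 0.07.

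**Figure D5:**
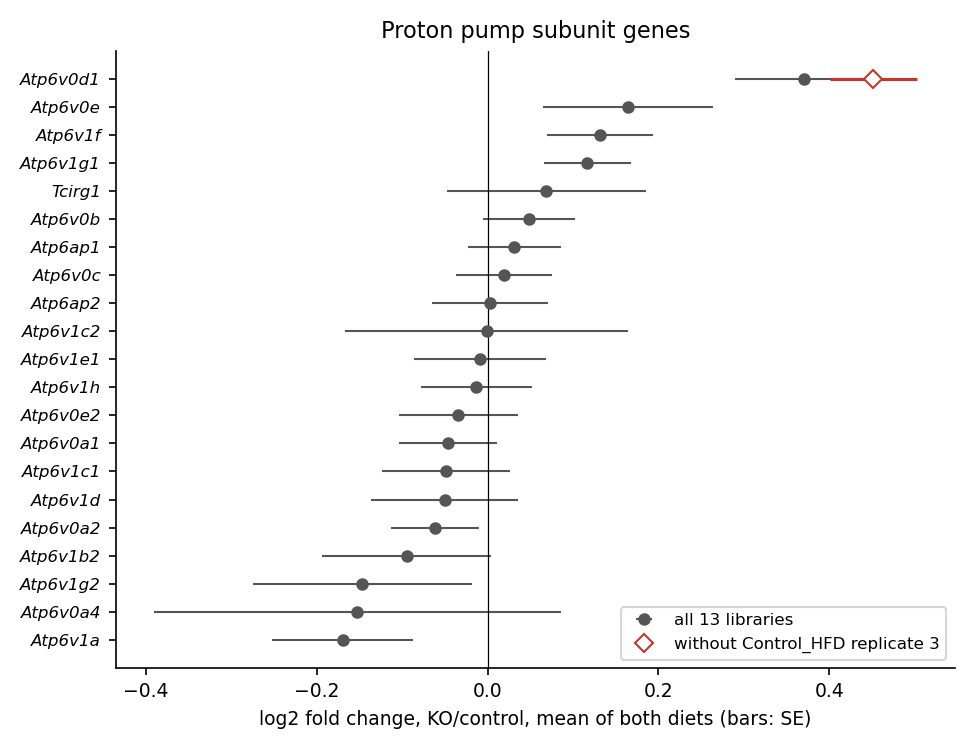
KO against control as log2 fold change, the mean of both diets (bars: SE), for Atp6v0d1 and the 20 other tested proton pump genes. Atp6v0d1 lies at 0.37 with all libraries and 0.45 without the library labelled Control_HFD replicate 3 (open diamond), and the other genes lie between -0.17 and 0.16.

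Genes around the substrate of the Hsd11b2 enzyme were listed as well: the opposing reductase, the corticosteroid receptors and genes that glucocorticoids are known to induce. Of 12 listed, 11 were tested, and edgeR with all libraries called none in any comparison, where it called 0.0% of all genes. On HFD, 10 lay above 0 and 1 below (median 0.16, all genes -0.00), and without the library labelled Control_HFD replicate 3 there were 7 above and 4 below (median 0.19). With all libraries 4 of the 11 had an unadjusted p under 0.05 on HFD (1.66% of all genes), and without that library 3 did. The 4 were Sgk1, an ion-transport kinase, at 0.68 ± 0.17, the transcription factor Zbtb16 at 0.62 ± 0.20, the receptor co-chaperone Fkbp5 at 0.38 ± 0.13 and Tsc22d3, a glucocorticoid-induced regulator, at 0.32 ± 0.13. On chow 4 lay above 0 and 7 below (median -0.22), with unadjusted p under 0.05 for 2 of the 11 (12.9% of all genes), Fkbp5 at -0.45 ± 0.14 and Zbtb16 at -0.59 ± 0.22. Hsd11b1, the opposing reductase, was at 0.03 ± 0.13 on HFD and 0.23 ± 0.14 on chow. Scnn1a, an epithelial sodium channel subunit, was at 0.49 ± 0.45 over both diets. The glucocorticoid and mineralocorticoid receptor genes Nr3c1 and Nr3c2 were at 0.04 ± 0.07 and -0.06 ± 0.07. The median of these 11 genes was above 0 on HFD and below 0 on chow. Whether their levels relate to that of Hsd11b2 was not tested.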

How the data were processed

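The authors deposited 1 table of raw read counts per gene with matching RPKM values. Per the submitters' processing notes the tools were STAR, STAR-Fusion, Subread, FastQC and edgeR and the build mm10, with no versions. The sources used here give neither strand setting nor annotation release, so reads of the 29 members that share exon bases with a gene on the other strand cannot be assigned with certainty. The deposited RPKM equalled the count scaled by library total and length plus 1 base, to within a relative difference of 3.22e-13. It was used for levels per length, with the deposited length column, in bases, only for this check. All 62 members matched GENCODE M21 (GRCm38) by identifier, version and start, and coordinates are from there.

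Genes were tested on counts with edgeR 4.0.16 (R 4.3.3): quasi-likelihood F test, TMM, robust dispersion, default expression filter, all 13 libraries in 4 groups, and the sex letter of the title as an additive term. This left 23622 genes and 8 residual degrees of freedom (median prior 3.69). Adjusted p-values are Benjamini-Hochberg over all genes tested, with a threshold of 0.05. The fit was tested on simulated data, where a log2 fold change of 1 was recovered for 76% of changed genes on HFD and 64% on chow. These shares hold for the simulated spread only. In the deposited counts the same fit did not call Hsd11b2 on chow at 6.40 ± 1.92. DESeq2 1.42.0, other scaling, no filter, no sex term, single diets and libraries left out were alternatives. Replicates correlated at 0.974 to 0.986 on log2 CPM and none was a repeat of another. Replicate numbers were given in accession order and pair no samples.

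Named genes were Hsd11b2, Atp6v0d1, the 6 members nearest to Agrp on either side, members called by edgeR with or without the library labelled Control_HFD replicate 3, per comparison up to 4 higher and 4 lower by unadjusted p (mean log2 CPM at least 1), the 5 with the highest mean RPKM, and up to 4 per comparison list. The members, lists and tests were chosen with earlier results of these data known. Diet and any batch that follows the mouse numbers cannot be told apart.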

Additional observations from a re-analysis of the deposited data

Results flagged for a closer look

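Among 57 groups of 4 libraries examined, 3 held a library far from the other 3, and chance alone gives about 1 in 20. Hsd11b2 was at 63.4 CPM in the library labelled Control_HFD replicate 3, against 0.339 to 1.57 CPM in the other HFD controls, a gap of 0.98 of the group's range. Agrp was at 61.6 CPM in Control_HFD replicate 2, against 11.0 to 17.1 CPM in the others. Pla2g15, a lysosomal phospholipase, was at 22.2 CPM in Control_HFD replicate 1, against 27.7 to 28.6 CPM in the others.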

How the results depend on the processing

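For 46 log2 fold changes, 850 alternative values were computed, of which 824 kept their direction and their side of the threshold. A further 12 newly passed it, all for Hsd11b2 or Atp6v0d1, which were tracked in every comparison. They came from DESeq2, from the chow libraries alone and from fits without the library labelled Control_HFD replicate 3. The last of these rest on an exclusion decided from the Hsd11b2 level. Numbers of genes called, against 0 with edgeR and all libraries, were as follows. DESeq2 called 344 genes on chow, 52 on the mean of both diets, 6 for the interaction and 14 for diet, of which 2 were members on chow and 2 on the mean. Without an expression filter edgeR called 1 gene on chow. The chow libraries alone gave 1 gene, a member, and fits without the libraries labelled Control_HFD replicate 3 and Control_Chow replicate 3 gave 1 gene, a member, on HFD, on chow and on the mean. Leaving out 1 library gave 0 to 1 genes and 0 to 1 members on HFD, the same on chow, 0 to 2 genes and 0 to 2 members on the mean, and 0 to 3 genes for diet. The member calls among these came without the library labelled Control_HFD replicate 3; without KO_Chow replicate 1 a gene outside the window was called on chow. With the HFD libraries alone and without that control, an alternative chosen after seeing the data, edgeR called 0 genes (Hsd11b2 at 5.99 ± 0.47, adjusted p of 0.75). The cause of these differences was not tested. Signs turned for 14 values, all on the mean of both diets. With all libraries Kctd19 was at 0.42 ± 0.54 and Lrrc36 at 0.35 ± 0.41, and the other genes concerned lay between -0.063 and 0.059. Without both named control libraries the sign turned for Acd at 0.027, Carmil2 at 0.033 and Lrrc36 at -0.103, while Ctcf, at 0.035, and Zdhhc1, at -0.088, kept their sign. Leaving out 1 library gave values of -0.053 to 0.0026 for Acd, -0.133 to 0.0016 for Carmil2, -0.021 to 0.025 for Ctcf, -0.161 to 0.791 for Kctd19, 0.120 to 0.805 for Lrrc36, -0.067 to 0.016 for Thap11, -0.0034 to 0.126 for Tppp3 and -0.066 to 0.020 for Zdhhc1. Members under about 1 CPM are limited by depth. No paired analysis was possible because the labels give mouse numbers and no replicate numbers, and the groups compared share fewer than 2 of them.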

Other observations

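Among the 30 members with a mean of at least 20 CPM, the spread among KO libraries was smallest for Edc4, with a coefficient of variation of 2.54%, and Tmem208, at 2.91%. It was largest for Slc9a5, a sodium-proton exchanger, at 29.1%, for Lcat, which esterifies cholesterol, at 28.4%, and for Slc12a4, a potassium-chloride cotransporter, at 20.9%. These 3 genes were picked for their spread. Slc12a4 was at 34.3, 37.6 and 46.3 CPM in KO on HFD and 24.1, 43.4 and 36.7 CPM in KO on chow. In controls it was at 25.5, 36.6, 26.7 and 41.1 CPM on HFD and 32.6, 31.8 and 32.6 CPM on chow, so the groups overlapped in both diets. On chow the highest KO library of Slc9a5, at 29.8 CPM, lay below the lowest control, at 34.0 CPM (log2 fold change -0.62 ± 0.28, edgeR adjusted p of 0.377), and its groups overlapped on HFD.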
